A study of Mus musculus with 4 samples.

Results

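The 10 genes described here serve testosterone synthesis in Leydig cells or encode the Leydig cell hormone Insl3. They are Star, Cyp11a1, Cyp17a1, Hsd3b1, Hsd3b6, Hsd17b3, Insl3, Lhcgr, Srd5a1 and Nr5a1, chosen by symbol, and all 10 were found among the 24426 genes of the expression table. All 10 reached 0.5 FPKM (fragments scaled to transcript length and to the mapped total) in at least 1 library, as did 16652 genes in all. The libraries came from testes of male C57BL/6 mice and carry the labels of 4 germ cell stages. Spermatogonia (SG) were pooled from 30 mice aged 7 days, and 5 mice aged 17 days gave the spermatocytes of the preleptotene (PlpSC), of the leptotene and zygotene (L/ZSC) and of the pachytene (PaSC) stage. Cells were dispersed with enzymes, left for Sertoli cells to adhere and separated by gravity sedimentation, so somatic cells that stayed in suspension could pass into a fraction. There was 1 library per stage, so no value has a replicate error, no difference was tested, and a library and its stage, or its age, cannot be told apart.

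Leydig cells lie between the seminiferous tubules and are not germ cells. Luteinizing hormone binds its receptor Lhcgr and raises cyclic AMP, Star carries cholesterol to the inner mitochondrial membrane, and Cyp11a1 cleaves it to pregnenolone. Hsd3b enzymes, Cyp17a1 and Hsd17b3 complete testosterone, Srd5a1 reduces it further, and Nr5a1 (SF-1) is a nuclear receptor that activates many of these genes. Insl3 is a peptide hormone that guides testis descent through its receptor Rxfp2. In mice, fetal Leydig cells express Hsd3b1, and Hsd3b6 and Hsd17b3 belong to the adult Leydig cell population.

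The labels of the libraries need care. Ldhc, the lactate dehydrogenase of late germ cells, stood at 3409 FPKM in the SG library, 354 in the PlpSC library, 5468 in the L/ZSC library and 5721 in the PaSC library. Spermatogonia are not known for it, and the lncRNA values of the column with the SG label ran in proportion to those the study lists elsewhere for PaSC. The PaSC label held the maximum of all 14 spermatid genes, beside 27.4% of all genes. The PlpSC label held that of all 12 macrophage and leukocyte genes, beside 41.3%. Of 12 genes of spermatogonia, 11 peaked under the PlpSC label and none under the SG label, beside 41.3% and 16.3% of all genes. When FPKM totals were made equal the counts were 4 and 6, beside 11.6% and 40.2% of all genes. Each library is therefore called by its label alone, as the SG, PlpSC, L/ZSC or PaSC library, with no claim on the cells in it. From the steps that single fragments leave among low values, the depth was estimated at 19.4, 18.3, 22.5 and 21.0 M fragments (M for mega) in the order SG, PlpSC, L/ZSC and PaSC. Fragment numbers given below rest on this estimate and on the length of the longest RefSeq-linked transcript, and are approximate.

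Most of the 10 genes were high in the PlpSC library, the PaSC library or both, and low in the SG and L/ZSC libraries. Summed over the 10 genes, the level was 67.8 FPKM in the SG library, 832 in the PlpSC library, 67.1 in the L/ZSC library and 2193 in the PaSC library, most of it Insl3 in the PlpSC and PaSC libraries. The genes divided evenly, 5 highest in the PaSC library, beside 27.4% of all 16652 genes, and 5 highest in the PlpSC library, beside 41.3%. Insl3, Cyp17a1, Cyp11a1, Star and Hsd17b3 had their maximum in the PaSC library. Hsd3b1, Hsd3b6, Lhcgr, Srd5a1 and Nr5a1 had it in the PlpSC library. With FPKM totals made equal, Hsd3b1 and Hsd3b6 moved to the PaSC library, Nr5a1 to the SG library and Srd5a1 to the L/ZSC library, which left Lhcgr alone in the PlpSC library. The PaSC library then held the maximum of 7 members, beside 42.9% of all genes. The 10 highest genes, led by the noncoding RNA gene Rmrp, made up 68.1% of the total in the PlpSC library. The other scalings, by median ratios or by the sum without the 100 highest genes, kept 5 and 5.

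**Figure D1:**
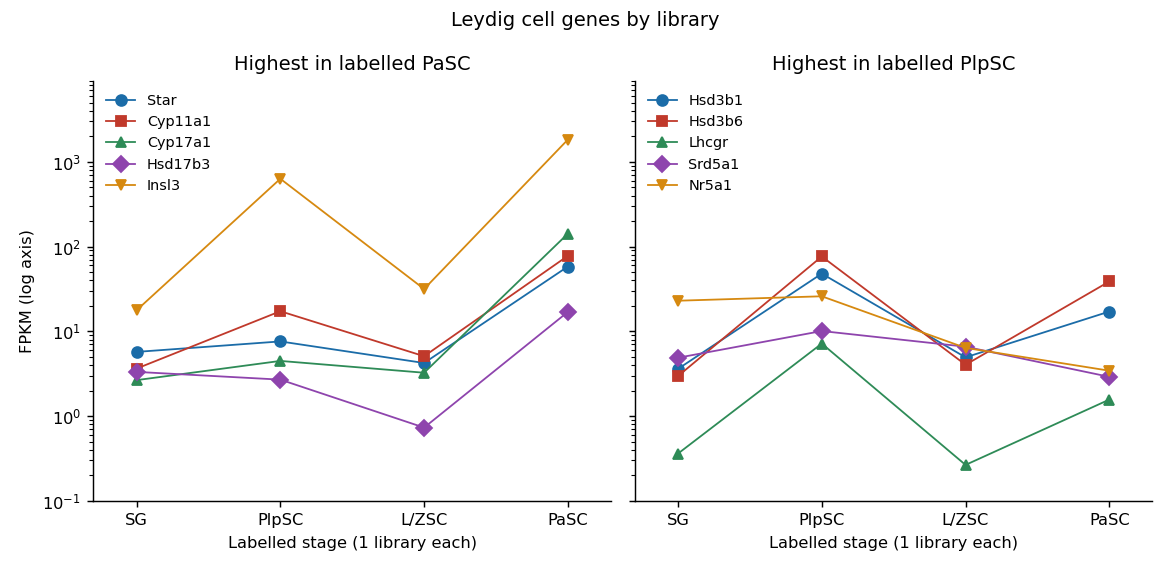
FPKM on a log axis for the 10 Leydig cell genes in the 4 libraries, 1 point per gene and library, with lines only to join the points of a gene. Left, the 5 genes highest in the PaSC library, where Insl3 reached 1834 FPKM. Right, the 5 genes highest in the PlpSC library, where Nr5a1 was nearly level between the SG library and the PlpSC library.

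Insl3 was the most abundant of the 10 genes in 3 libraries, and Nr5a1 exceeded it in the SG library. It lies on chromosome 8 at positions 71689214 to 71690575 (GRCm38, the assembly mm10 names). It stood at 17.7 FPKM in the SG library, 632 in the PlpSC library, 31.6 in the L/ZSC library and 1834 in the PaSC library. Its rank among all genes was 35 in the PaSC library, from about 23950 fragments, and 145 in the PlpSC library, from about 7212. In the PaSC library it was 58.0 times the L/ZSC library and 103 times the SG library. Jak3, a cytokine receptor kinase gene on the same strand, shares 404 of the 623 annotated exon bases of Insl3. Jak3 was at 1.65, 3.22, 3.16 and 5.64 FPKM in the order SG, PlpSC, L/ZSC and PaSC, below Insl3 in each library.

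The genes at the start of the pathway were mainly a feature of the PaSC library. Star, the cholesterol carrier on chromosome 8 (25806555 to 25815982), was at 5.72, 7.60, 4.23 and 58.2 FPKM in the order SG, PlpSC, L/ZSC and PaSC. The PaSC library was 7.66 times the PlpSC library, the next highest, and the L/ZSC library was lowest, at 0.556 times the PlpSC library. Cyp11a1, the side chain cleavage enzyme on chromosome 9 (58006411 to 58027023), was at 3.63 FPKM in the SG library, 17.3 in the PlpSC library, 5.08 in the L/ZSC library and 77.8 in the PaSC library. Unlike Star, it was also 4.76 times higher in the PlpSC library than in the SG library.

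Cyp17a1, the hydroxylase and lyase that leads to androgens, lies on chromosome 19 (46667165 to 46673172) and had the widest contrast between the PaSC and PlpSC libraries. It was at 2.65 FPKM in the SG library, 4.48 in the PlpSC library, 3.25 in the L/ZSC library and 142 in the PaSC library, from about 94, 149, 132 and 5410 fragments. The PaSC library was thus 31.8 times the PlpSC library and 43.8 times the L/ZSC library. Hsd17b3, which turns androstenedione into testosterone, lies on chromosome 13 (64058266 to 64089230). It was at 3.32, 2.69, 0.731 and 17.0 FPKM in the order SG, PlpSC, L/ZSC and PaSC, the lowest from about 21 fragments. It was not higher in the PlpSC library than in the SG library, where the ratio was 0.810.

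The Hsd3b genes, neighbours on chromosome 3, had the opposite order. Hsd3b1 (98852194 to 98859794) was at 3.60 FPKM in the SG library, 48.0 in the PlpSC library, 4.93 in the L/ZSC library and 17.1 in the PaSC library. Hsd3b6 (98805504 to 98814443) was at 2.96, 76.5, 4.03 and 38.8 FPKM in the same order of libraries. The PaSC library was 0.357 times the PlpSC library for Hsd3b1 and 0.507 times for Hsd3b6, but 1.07 and 1.52 times with FPKM totals made equal. The ratio of Hsd3b6 to Hsd3b1 within a library, which scaling cannot change, was 0.823 in the SG library, 1.59 in the PlpSC library, 0.818 in the L/ZSC library and 2.26 in the PaSC library. Hsd3b6 was thus the higher of the pair only in the PlpSC and PaSC libraries. In the SG library the levels came from about 104 fragments for Hsd3b6 and 130 for Hsd3b1, and in the L/ZSC library from about 163 and 206.

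The coding sequences of both genes, 1119 bases each, have the same base at 1007 positions (90.0%) when laid side by side without gaps. Some reads can therefore be hard to assign. Their first 30 coding bases (GENCODE M21, GRCm38, minus strand) are shown with the 4 differing bases in capitals.
Hsd3b1: atgGctggAtggagctgcctggtGacAgga
Hsd3b6: atgCctggGtggagctgcctggtAacTgga
Of all words of 50 bases in the longest RefSeq-linked transcript, 4.98% for Hsd3b1 and 16.1% for Hsd3b6 also occurred in transcripts of other genes. For Hsd3b6 these were mostly in Hsd3b2, and for Hsd3b1 no single gene, Hsd3b6 included, held more than 2.77%. The other Hsd3b genes were hardly present. Hsd3b2 and Hsd3b4 reached at most 0.0282 and 0.261 FPKM, and Hsd3b3 and Hsd3b5 were listed at 0 in every library. Hsd3b7, which serves bile acid synthesis, was at 3.07, 8.87, 1.75 and 1.82 FPKM in the order SG, PlpSC, L/ZSC and PaSC. Of the words of Insl3 61.8% also occurred in Jak3, the largest share of the 10 genes, and of those of Srd5a1 16.5% in Gm17108. Star, Cyp11a1, Cyp17a1, Hsd17b3, Lhcgr and Nr5a1 shared no such word with another gene.

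Lhcgr, the receptor on chromosome 17 (88716481 to 88791990), was at 0.361 FPKM in the SG library, 7.17 in the PlpSC library, 0.265 in the L/ZSC library and 1.57 in the PaSC library. The PaSC library held 0.218 times the level of the PlpSC library, while Insl3 was 2.90 times higher there. The lowest levels came from about 41 fragments in the L/ZSC library and 48 in the SG library. Lhcgr kept its maximum in the PlpSC library under every scaling tried.

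Nr5a1 and Srd5a1 did not follow the other Leydig cell genes. Nr5a1, on chromosome 2 (38692656 to 38714542), was at 23.0 FPKM in the SG library, 25.9 in the PlpSC library, 6.38 in the L/ZSC library and 3.43 in the PaSC library. It was lowest where Insl3 was highest, and the PaSC library was 0.149 times the SG library. Sertoli cells, the nursing cells of the tubule, also express Nr5a1. Of 16 Sertoli cell markers, 15 were highest in the SG library under every scaling tried, beside 10.4% to 40.2% of all genes by scaling. All 16 were more than 1.5 times lower in the PaSC library than in the L/ZSC library, beside 24.6% of all genes. Their summed level was 4136 FPKM in the SG library, 2463 in the PlpSC library, 1345 in the L/ZSC library and 352 in the PaSC library, and none was listed at 0. Clu, a secreted chaperone of Sertoli cells, was at 1014, 506, 258 and 87.6 FPKM in the same order. The part of Sertoli cell RNA in the values of Nr5a1 was not tested.

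Srd5a1, on chromosome 13 (69573449 to 69611442), was at 4.88 FPKM in the SG library, 10.1 in the PlpSC library, 6.59 in the L/ZSC library and 2.90 in the PaSC library. Its highest level was 3.47 times its lowest, the narrowest range of the 10 genes. It shares 476 of its 2909 exon bases with the annotated transcript Gm17108 on the same strand, as Cyp11a1 shares 145 of 4804 with Gm17322. Nsun2 and Nr5a1os overlap Srd5a1 and Nr5a1 on the opposite strand without sharing exon bases. Srd5a2, the other main reductase gene, did not reach 0.5 FPKM in any library.

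Between neighbouring labels, 7 of the 10 genes were more than 1.5 times higher in the PlpSC library than in the SG library. The share of all genes was 30.1%, and none of the 10 was lower (30.9% of all genes). Star, Hsd17b3 and Nr5a1 stayed within 1.5 times. The median difference of log2(FPKM + 0.5) was 1.54, against 0 over all 16652 genes. In the L/ZSC library 9 of the 10 were lower than in the PlpSC library, beside 45.4% of all genes, and none was higher (30.7% of all genes). Cyp17a1 stayed within 1.5 times at a ratio of 0.725. The median was -1.81, against -0.29 over all genes. In the PaSC library 8 were higher than in the L/ZSC library, beside 24.9% of all genes, while Srd5a1 and Nr5a1 were lower, as were 24.6% of all genes. The median was 3.37, against -0.10. The same 8 genes were higher in the PaSC library than in the SG library, and Srd5a1 and Nr5a1 lower, beside 24.7% and 39.9% of all genes, with a median of 2.71 against -0.24. Equal FPKM totals put 3 genes lower in the PlpSC library than in the SG library (70.4% of all genes) and 2 higher in the L/ZSC library than in the PlpSC library (52.8% of all genes). The median of the 10 genes was then 0.29 in the PlpSC library minus the SG library, against -1.04 over all genes, and -0.66 in the L/ZSC library minus the PlpSC library, against 0.57. Without Hsd3b1 and Hsd3b6 the median in the PlpSC library minus the SG library was 0.82 in the deposited values.

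Since the PlpSC library and the PaSC library both held Leydig cell genes, they were also set against each other, a comparison added after the values had been seen. Of the 10 genes, 5 were more than 1.5 times higher in the PaSC library, beside 35.4% of all genes, and 5 lower, beside 46.2%. With FPKM totals made equal 6 were higher and 2 lower, near the 60.5% and 22.6% of all genes. The ratios ran from 31.8 for Cyp17a1 to 0.132 for Nr5a1, and no common factor for all genes can remove such a range. The ratio of Cyp17a1 to Hsd3b1 was 8.30 in the PaSC library and 0.0933 in the PlpSC library, a difference of 89.0 times. Star relative to Hsd3b1 differed by 21.4 times and Cyp11a1 relative to Hsd3b1 by 12.6 times in the same direction. Insl3 relative to Lhcgr was 1171 in the PaSC library and 88.2 in the PlpSC library.

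**Figure D2:**
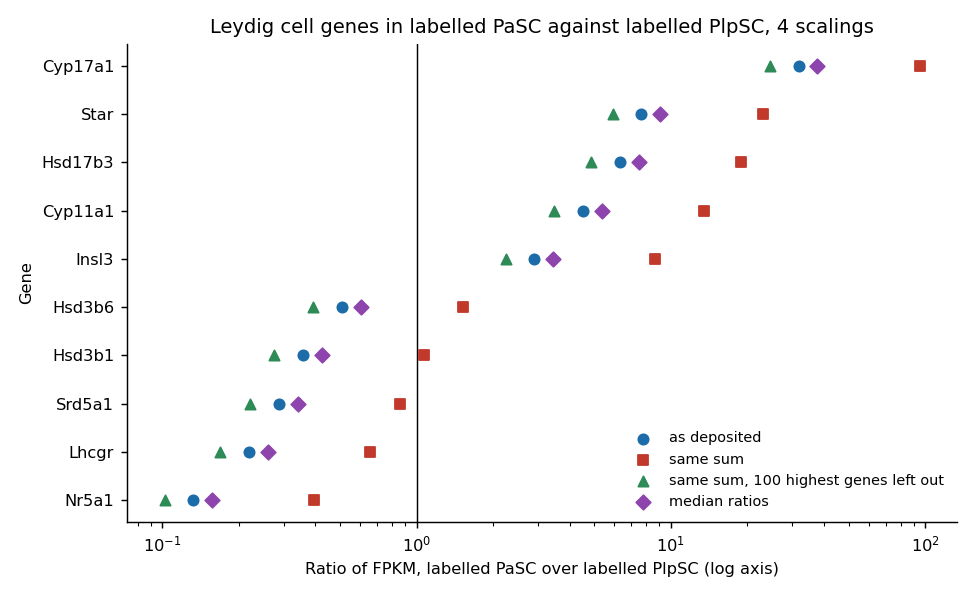
Ratio of FPKM in the PaSC library over the PlpSC library for each of the 10 genes on a log axis, with 1 symbol per scaling of the libraries; the vertical line marks a ratio of 1. A scaling multiplies all ratios by the same factor, so the order of the genes cannot differ between scalings. Hsd3b1 and Hsd3b6 cross the line when FPKM totals are made equal.

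**Figure D3:**
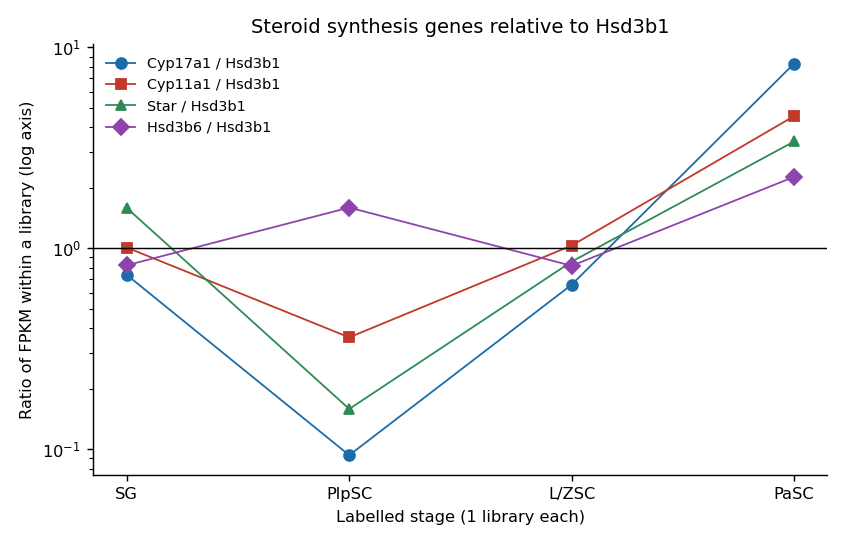
FPKM of Cyp17a1, Cyp11a1, Star and Hsd3b6 divided by that of Hsd3b1 within each library, on a log axis; the horizontal line marks equal levels. Cyp17a1 stands at 8.30 in the PaSC library and 0.0933 in the PlpSC library, and all 4 genes lie above the line in the PaSC library.

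Of 18 other genes known from Leydig cells, 16 reached 0.5 FPKM, and of these 1 was highest in the SG library, 10 in the PlpSC library and 5 in the PaSC library. The shares of all genes with their maximum there were 16.3%, 41.3% and 27.4%, so the PaSC count lay near its background. With FPKM totals made equal the counts were 2, 7 and 7, beside 40.2%, 11.6% and 42.9% of all genes. Fabp3, a fatty acid binding protein, was at 10.0 FPKM in the SG library, 174 in the PlpSC library, 7.54 in the L/ZSC library and 145 in the PaSC library. Aldh1a1, a retinaldehyde dehydrogenase, was at 134 FPKM in the PaSC library and 1141 in the PlpSC library. Ptgds, the prostaglandin D2 synthase, was at 236 FPKM in the PaSC library and 0.843 in the PlpSC library. Inha, the inhibin alpha subunit that Sertoli cells make too, was highest in the SG library at 203 FPKM. Sult1e1, the estrogen sulfotransferase of adult mouse Leydig cells, was named after its values had been seen. It was at 8.91 FPKM in the PaSC library and 0.0870 in the PlpSC library. The kallikrein genes Klk1b21, Klk1b24 and Klk1b27, named in the same way, were with Ptgds and Sult1e1 the 5 genes highest in the PaSC library. They were 2.22, 2.39 and 6.04 times higher in the PaSC library than in the PlpSC library. The kallikrein genes are close copies of each other, so reads may be split between members.

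Of 21 other enzymes and partners of steroid synthesis that reached 0.5 FPKM, 4 were more than 1.5 times higher and 3 lower in the PaSC library than in the L/ZSC library, beside 24.9% and 24.6% of all genes. Their median was 0.18 on the log2 scale, against -0.10 over all genes. Fdx1, the ferredoxin that passes electrons to Cyp11a1, was at 55.8, 55.1, 59.9 and 72.1 FPKM in the order SG, PlpSC, L/ZSC and PaSC. Tspo, an outer mitochondrial membrane protein, was at 11.8 FPKM in the PaSC library and 62.9 in the PlpSC library. Of the 13 genes of cholesterol uptake, storage and transport, 2 were higher and 2 lower in the PaSC library than in the L/ZSC library. The shares of all genes were 24.9% and 24.6%. Scarb1, the receptor for high density lipoprotein, was at 50.2, 30.2, 19.3 and 34.4 FPKM in the order SG, PlpSC, L/ZSC and PaSC. Of 18 cholesterol synthesis enzymes, 6 were higher and 1 lower at that step, against the same background of 24.9% and 24.6%. Fdft1, the squalene synthase, was at 157 FPKM in the PaSC library and 72.8 in the L/ZSC library. With FPKM totals made equal, 10 and 1 partners, 5 and 1 transport genes and 9 and 1 synthesis enzymes were higher and lower at that step, as were 34.6% and 11.5% of all genes.

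Of 15 genes of cyclic AMP signalling, 3 were higher and 3 lower in the PaSC library than in the L/ZSC library (5 and 1 with equal totals), beside 24.9% and 24.6% of all genes (34.6% and 11.5% with equal totals). Crem, a cyclic AMP response factor that late germ cells use heavily, reached 125 FPKM in the PaSC library. Of 11 transcription factors known from Leydig or other gonadal somatic cells, 1 was higher and 5 lower at that step (1 and 4 with equal totals), against the same shares of all genes. Nr0b1, a repressor of Nr5a1 action, was at 2.05 FPKM in the PaSC library and 40.2 in the SG library. Gata4, which acts with Nr5a1, was at 1.54 FPKM in the PaSC library and 21.4 in the PlpSC library. Among 6 receptors and carriers of the hormones, Rxfp2, the Insl3 receptor found on germ cells, was at 2.62, 0.170, 4.85 and 6.32 FPKM in the order SG, PlpSC, L/ZSC and PaSC, lowest in the PlpSC library.

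Markers of other cells separated the libraries that held Leydig cell genes. In the PlpSC library all 10 interstitial fibroblast genes and all 12 macrophage and leukocyte genes had their maximum, or 8 and 12 with FPKM totals made equal, and 7 of 8 peritubular myoid genes (6 with equal totals). Of all genes 41.3% had their maximum there, or 11.6% with equal totals. The fibroblast genes summed to 43.6 FPKM in the SG library, 753 in the PlpSC library, 21.8 in the L/ZSC library and 7.32 in the PaSC library. The macrophage genes summed to 37.1, 489, 24.1 and 13.5 FPKM in the same order. In the PaSC library both groups were thus at their lowest while Insl3 was at its highest. Col3a1, a fibrillar collagen, was at 1.49 FPKM in the PaSC library and 233 in the PlpSC library, and C1qa, a complement component, at 0.790 FPKM in the PaSC library and 83.9 in the PlpSC library. The myoid sum of the PaSC library, 114 FPKM, was mostly Actg2, a smooth muscle actin, at 90.3 FPKM. Spermatid genes summed to 13083 FPKM in the PaSC library and 157 in the L/ZSC library, with the transition protein gene Tnp1 at 4407 FPKM in the PaSC library. No fibroblast, macrophage, myoid or spermatid marker was listed at 0 in any library. Endothelial genes summed to at most 35.2 FPKM. Of these 10 genes 7 were highest in the SG library (9 with equal totals), beside 16.3% of all genes (40.2% with equal totals). Of 5 red blood cell genes 4 had values, and none of these reached the level of Lhcgr in the PlpSC library. Hba-a1 and Hba-a2 were at 2.25 and 0.00337 FPKM in the PlpSC library but at 0.000868 and 2.49 in the L/ZSC library. The values of these genes are therefore uncertain. Fewer Leydig cells and less RNA per Leydig cell cannot be told apart in such bulk libraries, and the part of the other cells in the values of the 10 genes was not tested.

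**Figure D4:**
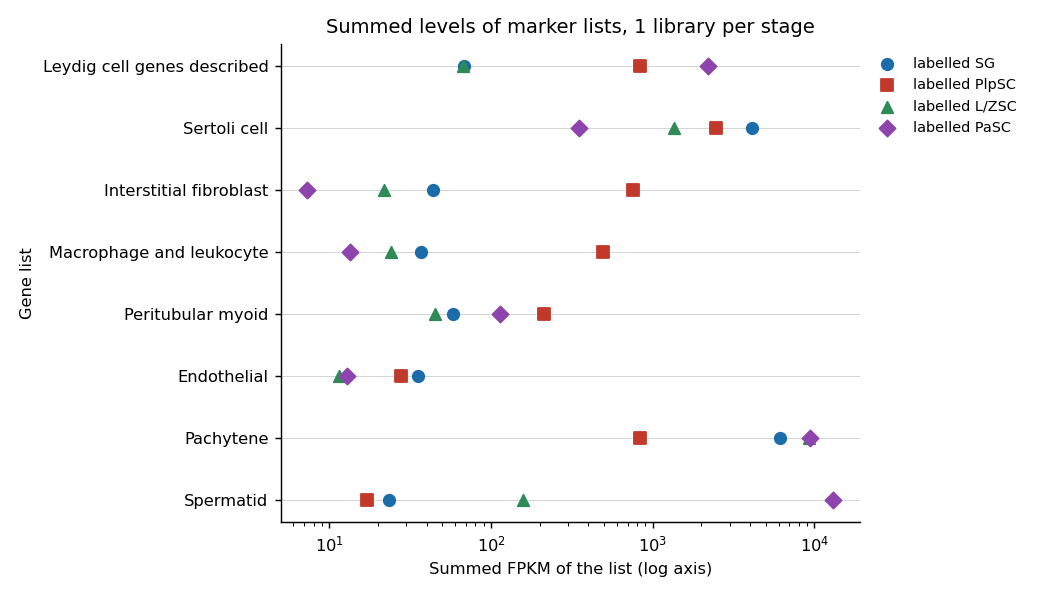
Summed FPKM of 8 gene lists on a log axis, 1 symbol per library. The Leydig cell genes sum to 2193 in the PaSC library and 832 in the PlpSC library, and the fibroblast and macrophage lists are lowest in the PaSC library and highest in the PlpSC library.

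The genes nearest to the median pattern of the 10 were found by the distance of centred log2(FPKM + 0.5) values over the 4 libraries, among genes of at least 5 FPKM in 1 library. They were Ell2 (distance 0.35), Smpd3 (0.37), 1700080O16Rik (0.38), Slc6a6 (0.46), 9230104L09Rik (0.50), Gm7367 (0.52), Plin2 (0.53), Bpifb5 (0.54), C1qtnf3 (0.54) and Rbms1 (0.54). Plin2, a lipid droplet coat protein, was at 5.16 FPKM in the SG library, 19.1 in the PlpSC library, 3.47 in the L/ZSC library and 28.6 in the PaSC library. Slc6a6, the taurine transporter, was at 1.60, 8.15, 2.16 and 20.3 FPKM in the same order. The members themselves lay farther from that pattern, at distances of 1.07 for Cyp11a1 to 4.08 for Nr5a1, so the median is the course of no single member. With Hsd3b1 and Hsd3b6 left out of the median pattern, 1 of these 10 genes remained among the nearest.

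Promoter sequence from RefSeq (GRCm38.p6) was searched over the 250 bases before the start for 7 of the 10 genes, Cyp11a1, Hsd3b1, Hsd3b6, Hsd17b3, Insl3, Lhcgr and Srd5a1. The others are Star, Cyp17a1 and Nr5a1. The element that Nr5a1 is known to bind, AAGGTCA on either strand, was in none of the 7, and in 4.70% of 27025 genes. A GATA site, TGATAA or AGATAA on either strand, was in 2 of the 7 and in 18.8% of all genes. Both were Hsd3b genes. Lhcgr and Srd5a1, which also peaked in the PlpSC library, held no match. The windows of the Hsd3b genes are shown on the strand of the gene (minus) with the match in capitals.
Hsd3b6, chr3:98814457-98814486: tggtagcagccaAGATAAaaagtcctgtcc
Hsd3b1, chr3:98859911-98859940: agttaaaaaaaaTTATCTccttgattctca
The match began at position -31 from the start of Hsd3b6 and, with the motif on the opposite strand, at position -134 from that of Hsd3b1. A match is a stretch of letters and no measured binding.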

How the data were processed

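RNA of 4 libraries, 1 per labelled stage, had been depleted of ribosomal RNA and made into directional libraries. TopHat placed the reads on mm10, and the authors took FPKM of RefSeq genes from Cuffdiff, as their methods and the submitters' processing notes state. Not given in the sources used here: program versions, scaling between libraries, use of strand. No read counts stand beside the deposited FPKM. Members and lists were chosen with earlier results of these data known.

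Python 3.11.15 was used with numpy 2.4.6 and pandas 2.3.3 for the values and matplotlib 3.10.9 for plots. A gene of at least 0.5 FPKM in 1 library was kept and counted as higher or lower where the plain ratio of FPKM passed 1.5. Medians are of log2(FPKM + 0.5), which understates differences of low genes. The worth of 1 fragment was the most common product of FPKM and transcript length among the lowest values of 13246 genes with 1 RefSeq-linked transcript over 1000 bases, in a range chosen after seeing the data. Between 206 and 235 genes lay at that step and 43 to 76 in the gap above it.

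Named genes were the members, the other Hsd3b genes, genes overlapping a member, the 10 genes of nearest pattern and genes among the 4 highest of a list. For most lists only some or none of the 4 highest were named, so a named gene need not stand for its list. Exceptions are stated where they occur, apart from Srd5a2 and Rmrp. Coordinates, exons and transcripts came from GENCODE M21 (GRCm38). Alternatives were pseudocounts of 0.1 and 1, no filter or filters of 1 and 5 FPKM, a fold of 2, 3 other scalings, leaving out the SG library and leaving out the Hsd3b genes.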

Additional observations from a re-analysis of the deposited data

How the results depend on the processing

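With 1 library per stage, no result has a replicate error, and the depth is an estimate. No paired analysis was possible because each stage had 1 library and the labels carry no replicate numbers. With FPKM totals made equal, 1 gene was highest in the SG library, 1 in the PlpSC library, 1 in the L/ZSC library and 7 in the PaSC library. That scaling moved the median of all genes to -1.04 between the PlpSC library and the SG library and to 1.05 between the PaSC library and the PlpSC library. Under it 3 genes were lower in the PlpSC library than in the SG library, and 2 were higher in the L/ZSC library than in the PlpSC library. In the PaSC library 1 gene was lower than in the L/ZSC library and 1 lower than in the SG library. With equal totals the differences of Star (-0.85), Cyp17a1 (-0.50), Srd5a1 (-0.27) and Nr5a1 (-1.14) changed sign in the PlpSC library minus the SG library. Those of Star (0.32), Cyp17a1 (0.64) and Srd5a1 (0.55) did so in the L/ZSC library minus the PlpSC library. Those of Hsd3b1 (0.095) and Hsd3b6 (0.60) did so in the PaSC library minus the PlpSC library, all on the log2 scale. The median of the 10 genes in the PaSC library minus the PlpSC library was 0.28 in the deposited values, 1.86 with equal totals, 1.84 without the Hsd3b genes, 0.53 by median ratios and -0.09 with totals equal apart from the 100 highest genes. At a fold of 2, 1 gene was lower in the PaSC library than in the L/ZSC library and 1 than in the SG library, and by median ratios 1 was lower in the PaSC library than in the SG library. Without the Hsd3b genes 3 genes were highest in the PlpSC library. Of the 10 nearest genes, 6 remained with a pseudocount of 0.1, 6 without the SG library and 1 without the Hsd3b genes. The causes were not tested. Filters of 1 and 5 FPKM, or none, could not change the 50 member differences, so they say nothing on stability. Every member passed 5 FPKM in at least 1 library, the lowest maximum being 7.17 FPKM for Lhcgr.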
